A study of Mus musculus with 6 samples.

Results

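Amino acid transporters are membrane carriers that move amino acids into and out of cells and organelles, and they belong to several solute carrier (Slc) families. The genes were taken by symbol, as every gene on a probeset annotated to a single gene whose name is Slc1a, Slc3a, Slc6a, Slc7a, Slc36a, Slc38a or Slc43a followed by digits. This gave 61 genes of 19288 with such a probeset, and 47 of them, among 15145 genes in all, were above a detection level on at least 3 of 6 arrays and were tested. The symbol rule also takes in relatives with other cargo, namely the carriers of creatine, taurine, dopamine, serotonin and noradrenaline in the Slc6 family and the nucleobase carrier Slc43a3. Opposite-strand genes that share a name with a member (Slc7a6os, Slc6a19os) were left out.

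The cells were cultured mouse embryonic fibroblasts, called dp53R in the series title, and the sample titles of both groups carry the word Ras. Neither name is spelled out in the labels, and the promoter of the hairpin vector, the number of clones and the p53 genotype are not given in the sources used here. The 3 control arrays carried the hairpin construct shSCR and the 3 others the construct shARF, aimed at ARF, a tumour suppressor encoded by the Cdkn2a locus. Both groups grew in the same medium, DMEM with 10% serum, 2 mM glutamine, 0.1 mM nonessential amino acids and 1 mM pyruvate. Each array gave 1 normalized linear signal for each of 26851 probesets, with array medians from 41.97 to 42.86. The signal of the Cdkn2a locus was lower in shARF: its probeset gave 535, 539 and 516 in shSCR and 315, 254 and 286 in shARF. That probeset is annotated to the gene, with no transcript named, so it is not a measure of ARF alone. Fibroblast markers were all tested (10 of 10, Col1a1 and Vim among them), and 1 passed the test (Lum, 2.43-fold higher). Of their differences 6 were positive and 4 negative. The shARF arrays lay wholly above the shSCR arrays for 5 markers, Lum included. They lay wholly below for 2, Thy1 (-0.38 on the log2 scale) and Pdgfra (-0.22), which did not pass. The summed signal of the 10 markers ran from 21600 to 23216 in shSCR and from 22929 to 23589 in shARF. Of 8 macrophage markers, Adgre1, Csf1r, Itgam, Lyz2 and Ptprc were not above the detection level on any array, while Cd14, Cd68 and Fcgr1 were tested and did not pass. Cd68 differed by -0.36 on the log2 scale, with all shARF arrays below all shSCR arrays (limma, adjusted p = 0.109). The groups overlapped for Cd14 and Fcgr1. The labels call the replicates biological without saying whether they were separate cultures, so p-values measure the spread between these samples.

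Proliferating fibroblasts take up glutamine, leucine, serine and cystine through a set of linked carriers. Sodium-coupled carriers such as those of the Slc38 and Slc1 families load the cell with neutral amino acids. Exchangers of the Slc7 family, bound to a heavy chain of the Slc3 family, trade these for leucine and other large neutral amino acids. The exchanger encoded by Slc7a11 takes up cystine in exchange for glutamate. When amino acids run short, the kinase GCN2 and the transcription factor ATF4 raise the transcription of several of these carriers, through a promoter sequence called the amino acid response element.

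Members whose promoters match the core sequence of this element are shown first, and whether the pathway acts at them was not tested. RefSeq promoter sequences (build GRCm38.p6) were available for 45 of the 61 members, and the 250 bases before each annotated start were searched on both strands for the core TGATGNAA, where N is any base. The core was found in 3 of the 45 members (6.67%), Slc7a11, Slc7a7 and Slc6a21, and in 3.91% of 27025 genes. The members without a promoter sequence, Slc1a5, Slc7a5 and Slc38a1 among them, were not searched, and neither were bases after the start of any member. In the lines that follow, capitals mark the core on either strand, and each sequence is written 5′ to 3′ on the gene's strand. Slc7a11 held 2 cores in opposite orientation, beginning 66 and 47 bases before the start (chr3:50443626-50443704, minus strand), Slc7a7 held 1 before each of 2 of its 5 annotated starts, beginning 243 and 141 bases before them (chr14:54417911-54417952 and chr14:54418051-54418110, minus strand), and Slc6a21 held 1 beginning 28 bases before the start (chr7:45282820-45282872, plus strand).
Slc7a11: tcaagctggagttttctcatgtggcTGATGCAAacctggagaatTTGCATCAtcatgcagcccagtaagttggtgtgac
Slc7a7, core 243 bases before its start: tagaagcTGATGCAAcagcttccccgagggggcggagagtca
Slc7a7, core 141 bases before its start: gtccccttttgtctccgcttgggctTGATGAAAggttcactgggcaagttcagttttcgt
Slc6a21: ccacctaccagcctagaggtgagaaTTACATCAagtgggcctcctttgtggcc

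The member with the largest difference on the arrays was the glutamate carrier gene Slc1a6, and its 250 bases before the start (chr10:78780246-78780495, plus strand) held no core, so no letter is in capitals. The window is 78.8% G or C with 26 CpG pairs, where the median over 32851 promoter windows is 52.4% and 6 pairs and 1.72% of windows are as rich in G and C. Over the 66 windows of the members the median is 55.6% and 8.5 pairs. A window of Slc7a6, which did not pass the test, reaches 77.2% with 38 pairs.
Slc1a6: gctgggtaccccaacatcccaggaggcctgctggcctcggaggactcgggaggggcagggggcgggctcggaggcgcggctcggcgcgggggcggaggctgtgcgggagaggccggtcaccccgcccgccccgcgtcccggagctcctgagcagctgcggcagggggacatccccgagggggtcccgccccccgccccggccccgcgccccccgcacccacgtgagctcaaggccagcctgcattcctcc
A match, or its absence, describes these letters only. Slc6a8, the other member that passed the test, was not in the promoter table.

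Of the 47 tested members, 2 passed the test at an adjusted p under 0.05 (limma, Benjamini-Hochberg over all tested probesets). Slc6a8, which encodes the creatine transporter, rose, and Slc1a6, which encodes a glutamate carrier best known from cerebellar Purkinje cells, fell. The share called, 4.26% of the members, lay near the 4.01% called over all genes tested (1.62% higher and 2.38% lower). The median log2 difference (shARF minus shSCR) was 0.02 over the members and -0.01 over all genes. Of the member differences 28 were positive and 19 negative, or 59.6% positive beside 46.8% over all genes. In each array the median member lay between -0.022 and 0.022 on the log2 scale around its shSCR mean, so no array shifted the whole set.

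**Figure D1:**
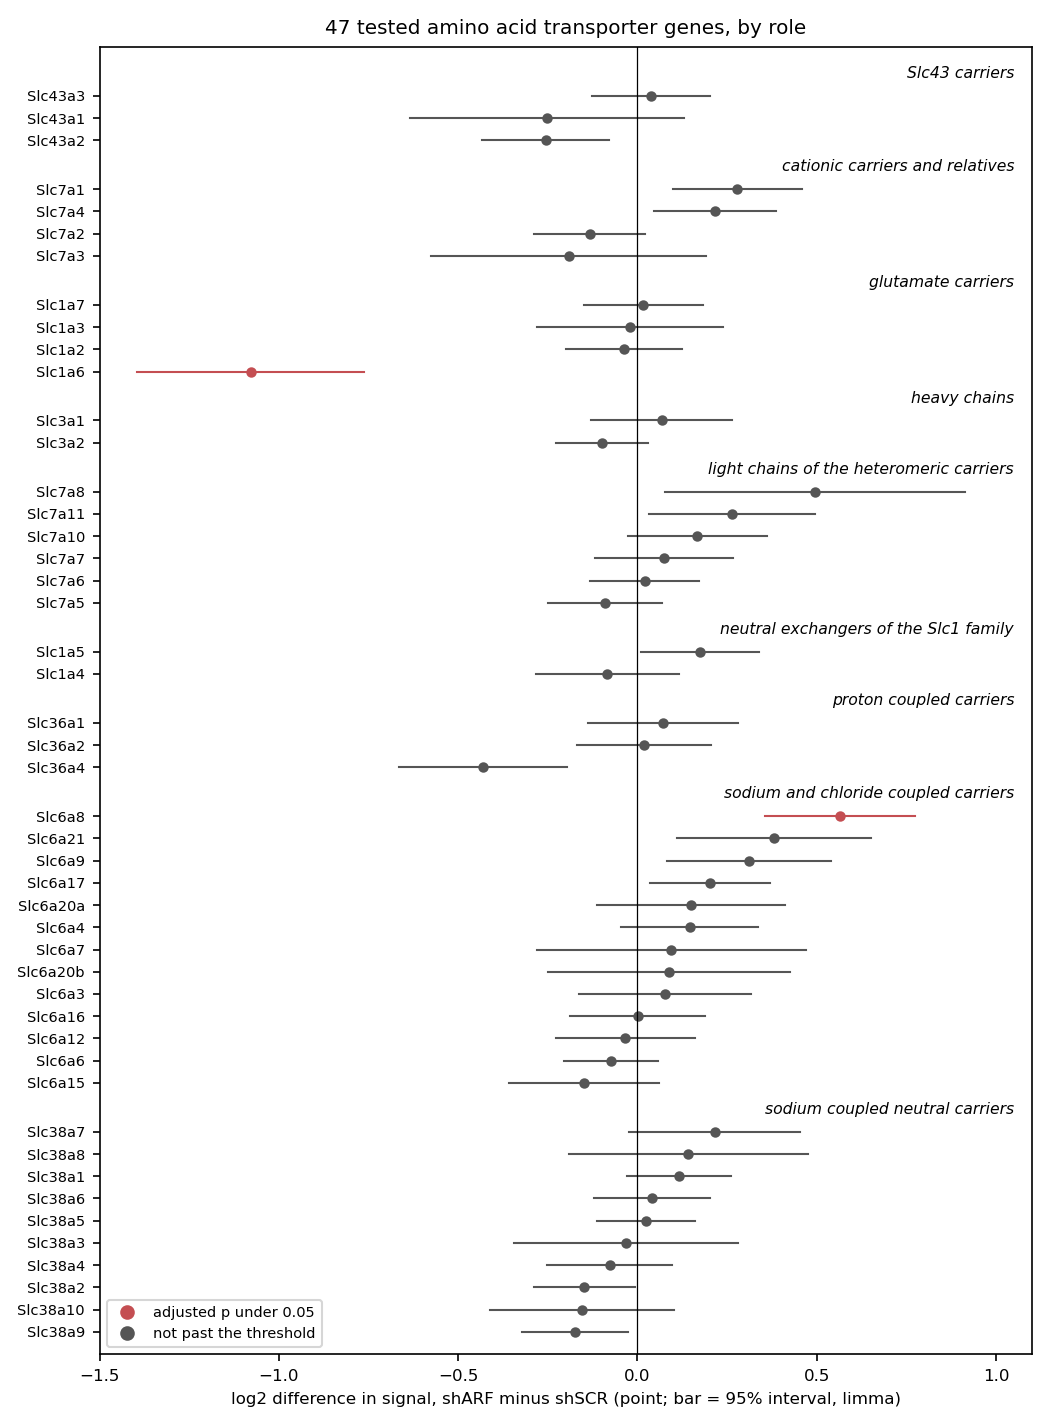
Log2 difference in signal, shARF minus shSCR, for the 47 tested amino acid transporter genes grouped by role; points are the differences of 3 against 3 arrays and bars the 95% intervals from limma. Slc1a6 at -1.08 and Slc6a8 at 0.57, in red, are the members that passed the test, and the other 45 did not.

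Most members differed little, though the median absolute difference was 0.13 over the members and 0.10 over all genes. The 95% interval of the difference lay inside -0.5 to 0.5 on the log2 scale for 39 of the 47 and inside -1 to 1 for 46. Over all 15145 genes tested the counts were 13023 and 14977. At an unadjusted p under 0.05 there were 14 members, 9 higher and 5 lower, which is 29.8% of the members beside 22.2% of all genes. The 3 shARF arrays lay wholly above the 3 shSCR arrays for 10 members, where 12.0% of all genes did so, and wholly below for 7, where 16.6% did. The typical standard error of a member difference was 0.082 on the log2 scale. On bulk arrays such as these, fewer cells of one type and less RNA per cell cannot be told apart.

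The glutamate carriers of the Slc1 family clear glutamate together with sodium, and 1 of the 4 tested changed. Slc1a6 gave signals of 65.0, 61.4 and 66.1 in shSCR and 28.8, 37.8 and 25.8 in shARF. Every shARF array was lower than every shSCR array, and the nearest pair was 61.4 and 37.8. The log2 difference was -1.08 ± 0.135 (SE, n = 3 per group), with a 95% interval from -1.40 to -0.76 (limma, adjusted p = 0.0102), and the call was lost without shSCR replicate 3 (limma, adjusted p = 0.0546). The level of all 6 arrays was above the detection level of 14.1 to 14.9. Its relatives did not follow. Slc1a3, a carrier best known from astrocytes, gave 126, 138 and 140.3 in shSCR and 131, 154 and 115 in shARF, with the groups overlapping. Slc1a2, the main carrier of forebrain astrocytes, lay just above the detection level at 17.9, 16.5 and 16.2 in shSCR and 15.9, 16.2 and 17.3 in shARF. Their differences were -0.02 (interval -0.28 to 0.24) and -0.04 (-0.20 to 0.12). Slc1a7 differed by 0.02, and Slc1a1 was not above the detection level on any array.

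Markers of neural cells were examined beside Slc1a6, a gene known mainly from neurons. Of the 9 marker genes, 8 were tested, 1 rose (the neurofilament gene Nefl) and 0 fell, and the shSCR arrays summed to 636 to 691 over the list and the shARF arrays to 779 to 809.6. The astrocyte gene Aqp4 was not above the detection level on any array. Without Nefl the shSCR arrays summed to 529 to 598 and the shARF arrays to 515 to 606, which overlap. Map2 was also higher in shARF, by 0.31 with no overlap (limma, adjusted p = 0.0969). Tubb3, a neuronal tubulin gene, differed the other way, by -0.52 with no overlap (limma, adjusted p = 0.12). Both were short of the threshold. The part of these markers in the Slc1a6 result was not tested. The epithelial list also differed, at 231 to 263 in shSCR and 340.3 to 474.6 in shARF, with 1 of 6 markers (Krt18) called.

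The sodium and chloride coupled Slc6 family was the largest group, with 20 members, 13 of them tested and 1 called. Slc6a8 gave 129.6, 132 and 139 in shSCR and 223, 179.7 and 192 in shARF. The groups were separate, with the lowest shARF array at 179.7 and the highest shSCR array at 139. The rise was 0.57 ± 0.089 on the log2 scale (SE, n = 3 per group), or 1.48-fold, with an interval from 0.36 to 0.77 (limma, adjusted p = 0.0207). It did not hold for every set of arrays: adjusted p in limma was 0.082, 0.0695 and 0.0723 without shSCR replicate 1, 2 and 3, and 0.0622 without shARF replicate 3. It passed without shARF replicate 1 (0.0421) and 2 (0.03).

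Slc6a9, the glycine transporter GlyT1, came next among the brighter members of the family. It gave 252, 292 and 225 in shSCR and 318, 309 and 322 in shARF, which do not overlap. The difference of 0.31 (interval 0.08 to 0.54) did not pass (limma, adjusted p = 0.138). Slc6a6, the taurine transporter, gave 1191, 1153 and 1203 in shSCR and 1103, 1149.5 and 1116 in shARF. Those groups were separate by a narrow gap, and the difference was -0.07 (interval -0.21 to 0.06).

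The monoamine carriers of the same family were dim, with signals under the array medians. The serotonin transporter gene Slc6a4 and the dopamine transporter gene Slc6a3 were above the detection level on all 6 arrays, at means of 19.0 and 24.8 in shSCR and 21.0 and 26.2 in shARF, and neither passed (limma, adjusted p = 0.36 and 0.705). The noradrenaline transporter gene Slc6a2, the broad amino acid carrier gene Slc6a14 and the kidney and gut neutral amino acid carrier gene Slc6a19 were not above the detection level on any array. Slc6a17, a carrier of synaptic vesicles, gave 61.7, 69.9 and 61.0 in shSCR and 73.5, 74.5 and 73.2 in shARF, a difference of 0.20 that did not pass (limma, adjusted p = 0.171). Slc6a21 measured 0.38 with an interval from 0.11 to 0.65, but only 1 of its shSCR arrays was above the detection level against 3 of its shARF arrays. Slc6a20a and Slc6a20b, neighbouring copies of a proline carrier gene, differed by 0.15 and 0.09, and probes for one copy may read the other.

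The heavy chains bring the Slc7 light chains to the cell surface. Slc3a2, the heavy chain also known as CD98, gave 1086, 1138 and 1119.6 in shSCR and 1048, 1038 and 1036 in shARF. All shARF arrays were lower, by little: the difference was -0.10 with an interval from -0.23 to 0.03 (limma, adjusted p = 0.359). Slc3a1, the heavy chain of kidney and gut cystine uptake, was dim at 19.0, 16.5 and 17.5 in shSCR and 19.1, 16.9 and 19.5 in shARF.

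Of the 6 tested light chains 0 passed limma's test and SAM called 0, while 2 were higher at an unadjusted p under 0.05 and 5 of the 6 differences were positive. Slc7a11 encodes xCT, which imports cystine in exchange for glutamate and feeds glutathione synthesis. It gave 69.3, 87.8 and 78.7 in shSCR and 90.7, 101 and 90.3 in shARF. The gap between the groups was small, from 87.8 to 90.3, and the difference of 0.26 (interval 0.03 to 0.50) did not pass (limma, adjusted p = 0.193). Slc7a5 encodes LAT1, the leucine and tryptophan exchanger, and gave 1836, 1841 and 1636 in shSCR and 1689, 1649.8 and 1642 in shARF. The groups overlapped, since shSCR replicate 3 was the lowest of all 6 arrays. Slc7a6, a light chain that exchanges cationic for neutral amino acids, gave 392, 358 and 365 in shSCR and 385, 360.2 and 386 in shARF and differed by 0.02 (interval -0.13 to 0.17). Slc7a8, the neutral exchanger LAT2, had the largest standard error of this group on the log2 scale, 0.178, with signals of 20.9, 27.7 and 31.1 in shSCR and 43.8, 30.3 and 37.8 in shARF. Its difference of 0.49 had an interval from 0.08 to 0.91 and did not pass (limma, adjusted p = 0.182). Slc7a7, which has the amino acid response core before 2 of its annotated starts, differed by 0.07, and Slc7a9, Slc7a13 and Slc7a15 were not above the detection level on any array.

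Among the cationic carriers, which import arginine, lysine and ornithine, 0 of 4 tested genes passed in limma and 0 in SAM, and 2 were higher at an unadjusted p under 0.05. Slc7a1, the widely expressed arginine carrier, gave 331, 372 and 314 in shSCR and 403, 409 and 419 in shARF. The 3 shARF arrays were higher and closer together than the 3 shSCR arrays, and the difference of 0.28 (interval 0.10 to 0.46) did not pass (limma, adjusted p = 0.103). Slc7a3 gave 141, 196 and 133 in shSCR and 133, 157 and 119 in shARF, and Slc7a2, the carrier induced in activated macrophages, 27.7, 25.6 and 27.7 in shSCR and 25.7, 24.8 and 23.4 in shARF. Both overlapped between groups. Slc7a4, a relative of these carriers, was dim in both groups and differed by 0.22.

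**Figure D2:**
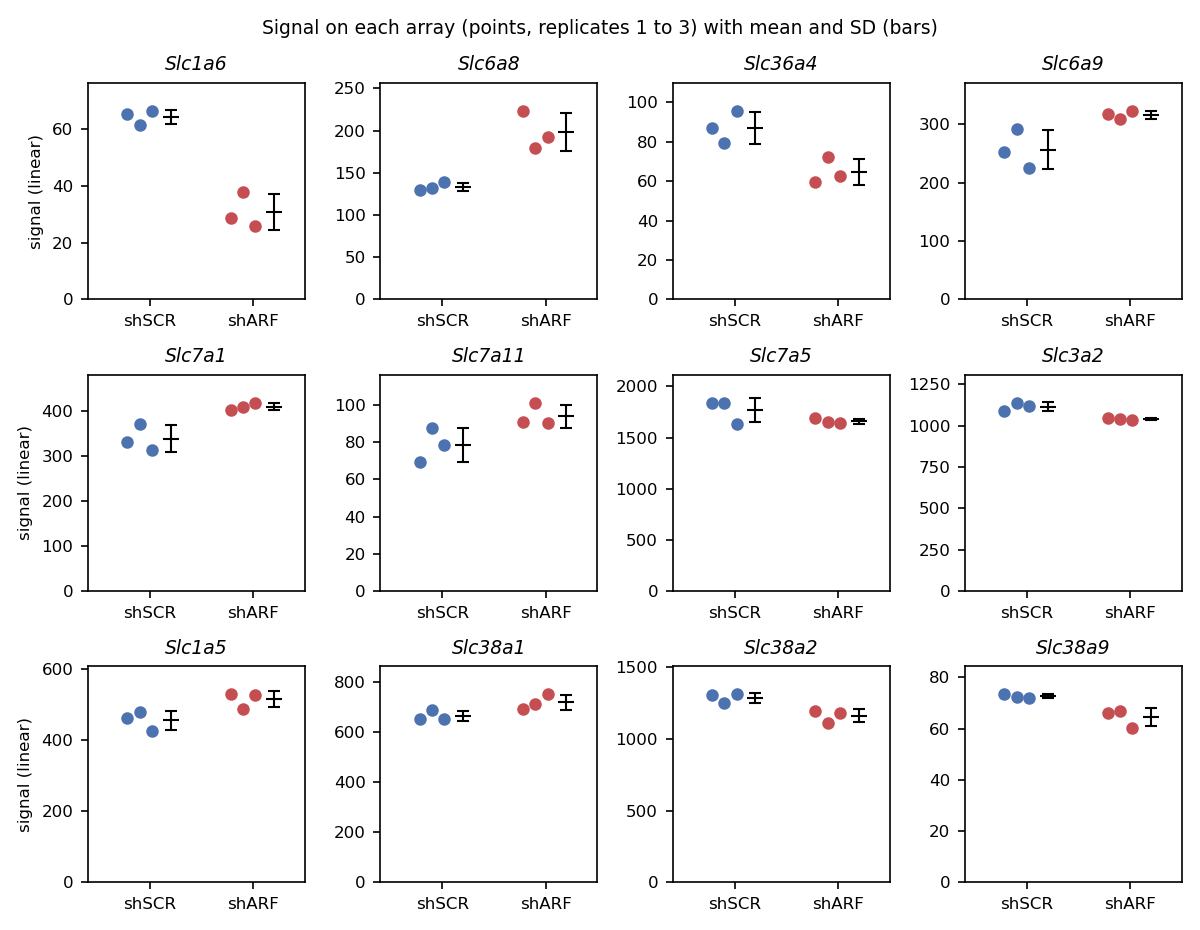
Normalized linear signal of 12 members on each array, from 0, with points for replicates 1 to 3 and black bars for the mean and SD of each group (n = 3). Slc1a6 falls from 61.4 to 66.1 in shSCR to 25.8 to 37.8 in shARF and Slc6a8 lies higher in all shARF arrays. The other 10 panels show smaller log2 differences that did not pass the test, and the groups overlap for Slc7a5.

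The neutral exchangers of the Slc1 family carry alanine, serine, cysteine and glutamine. Slc1a5, the glutamine exchanger ASCT2, gave 462, 479 and 426 in shSCR and 528, 488 and 526 in shARF. The groups were separate by the gap from 479 to 488, and the difference of 0.17 (interval 0.01 to 0.34) did not pass (limma, adjusted p = 0.217). Slc1a4, the serine exchanger ASCT1, gave 118, 136 and 138 in shSCR and 117, 131 and 121 in shARF, with the groups overlapping.

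The sodium-coupled neutral carriers of the Slc38 family import glutamine, alanine and other small neutral amino acids, and 0 of 10 tested members passed in limma and 0 in SAM, with 2 lower at an unadjusted p under 0.05. Slc38a2, the carrier that cells raise when amino acids are withdrawn, gave 1304, 1248 and 1310.4 in shSCR and 1194, 1113 and 1179.9 in shARF. All shARF arrays were lower, and the difference of -0.15 (interval -0.29 to -0.01) did not pass (limma, adjusted p = 0.224). Its neighbour Slc38a1, a glutamine carrier, gave 651, 687 and 654 in shSCR and 693, 714 and 751 in shARF, higher in all shARF arrays by 0.12 (interval -0.03 to 0.26). A second probeset of Slc38a1 differed by 0.07 with overlapping groups. Slc38a4, the next gene on chromosome 15, gave 1026, 912 and 936 in shSCR and 967, 881 and 875 in shARF. These 3 adjacent genes therefore had differences of both signs, and none passed.

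Slc38a9 sits in the lysosomal membrane, where it reports arginine to the kinase complex mTORC1. It gave 73.4, 72.5 and 72.1 in shSCR and 66.1, 66.8 and 60.4 in shARF. The groups did not overlap, and the difference of -0.17 (interval -0.32 to -0.03) did not pass (limma, adjusted p = 0.182). The second probeset of the gene differed by -0.05, with overlapping groups. Slc38a7, a lysosomal glutamine carrier, differed by 0.22 (interval -0.02 to 0.45).

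The Slc36 family holds carriers that move small amino acids together with protons, and relatives of these. Of 3 tested members 0 passed in limma, where 1 was lower at an unadjusted p under 0.05. Slc36a4 came nearest to the threshold of all members that did not pass. It gave 87.0, 79.3 and 95.5 in shSCR and 59.4, 72.2 and 62.8 in shARF, with no overlap. The difference was -0.43 (interval -0.66 to -0.20; limma, adjusted p = 0.0676), and SAM, the test that the series design names, placed the gene among the lower ones at a false discovery rate of 0.05. Slc36a1, the lysosomal carrier of this family, gave 90.2, 88.5 and 83.7 in shSCR and 104, 85.4 and 87.3 in shARF. Slc36a2 gave 17.8, 18.6 and 19.7 in shSCR and 17.2, 20.0 and 19.8 in shARF. Both overlapped between groups, and on chromosome 11, where Slc36a1, Slc36a2 and Slc36a3 lie side by side, Slc36a3 was below the detection level on every array.

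The Slc43 family holds facilitated carriers of large neutral amino acids, and its 3 members had 0 calls in limma or SAM and 1 lower at an unadjusted p under 0.05. Slc43a1 gave 66.9, 72.7 and 64.6 in shSCR and 65.6, 65.5 and 43.1 in shARF. Only shARF replicate 3 stood apart there, and the difference moved from -0.25 to -0.05 without it. Slc43a2 gave 19.6, 21.3 and 21.0 in shSCR and 18.6, 17.2 and 16.1 in shARF, a difference of -0.26 (interval -0.43 to -0.08) that did not pass (limma, adjusted p = 0.12). The nucleobase carrier gene Slc43a3 gave 451, 404 and 398 in shSCR and 441, 427 and 415 in shARF.

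Position gave no common direction either. The 4 members on the X chromosome are Slc6a8, Slc7a3, Slc38a5 and Slc6a14, and the 3 that were tested differed by 0.57, -0.19 and 0.02. The neighbours Slc43a1 and Slc43a3 on chromosome 2 differed by -0.25 and 0.04, and Slc6a16 and Slc6a21 on chromosome 7 by 0.00 and 0.38.

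Genes that work with the transporters were taken as 8 lists, and 5 of their 140 tested genes passed, or 3.57%, beside the 4.01% called over all genes. Of 23 tested genes of the amino acid response and serine synthesis, 2 rose and 0 fell, with a median difference of 0.13 beside -0.01 over all genes. At an unadjusted p under 0.05 there were 7 of the 23, 6 higher and 1 lower, beside 22.2% of all genes. Nupr1, a small chromatin protein induced by stress, rose from 867 ± 33.7 to 1198 ± 15.6 (SD, n = 3), and Ddit4, an inhibitor of mTORC1, from 74.7 ± 1.56 to 92.6 ± 4.55. Ddit4 did not pass in any of the 6 fits on 5 arrays (limma, adjusted p from 0.0719 to 0.134), and Nupr1 without shSCR replicate 3 (limma, adjusted p = 0.0517). The pathway's transcription factor Atf4 differed by 0.05 and its target Asns, the asparagine synthetase gene, by 0.11, and neither passed. Among 17 tested aminoacyl-tRNA synthetase genes 0 passed in limma and 0 in SAM; Hars, at -0.15, was the 1 gene with an unadjusted p under 0.05.

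Of 29 tested genes of amino acid sensing by mTORC1, which receives the signal of Slc38a9, 1 rose and 1 fell. At an unadjusted p under 0.05 in limma there were 11 of the 29, 5 higher and 6 lower, beside 22.2% of all genes. The groups did not overlap for 14 of the 29, beside 28.6% of all genes, and SAM called 2 higher and 1 lower. Rragd, a Rag GTPase that recruits mTORC1 to the lysosome, rose from 31.0 ± 2.29 to 45.2 ± 4.56 (SD, n = 3), a log2 difference of 0.54. Mlst8, a subunit of the kinase complex itself, fell from 120.5 ± 7.44 to 87.4 ± 4.47, a log2 difference of -0.46. Each lost its call without 5 of the 6 arrays in turn, with the highest adjusted p in limma at 0.1 for Rragd and 0.0728 for Mlst8.

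Of 18 tested amino acid carriers of other Slc families, 1 fell, and 3 had an unadjusted p under 0.05, 1 higher and 2 lower. The called gene was Slc17a6, the gene of a vesicular glutamate transporter, at 26.0 ± 2.95 in shSCR and 17.0 ± 1.67 in shARF (SD, n = 3). Its log2 difference was -0.61 (limma, adjusted p = 0.0277), and its call was lost without 5 of the 6 arrays (highest adjusted p in limma 0.09). The lists of glutamine, glutamate and aspartate enzymes, glutathione synthesis and cystine handling, polyamine and arginine enzymes, and branched-chain amino acid breakdown had 17, 16, 8 and 13 tested genes. None of these passed limma's test, and 4, 3, 1 and 5 had an unadjusted p under 0.05. SAM called 2 of the glutamine, glutamate and aspartate enzymes lower and 0 genes of the other 3 lists. Their smallest p-values belonged to Oat (ornithine aminotransferase), Txnrd1 (thioredoxin reductase), Arg2 (arginase) and Hibch (valine breakdown), which differed by -0.28, -0.23, -0.27 and -0.25.

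**Figure D3:**
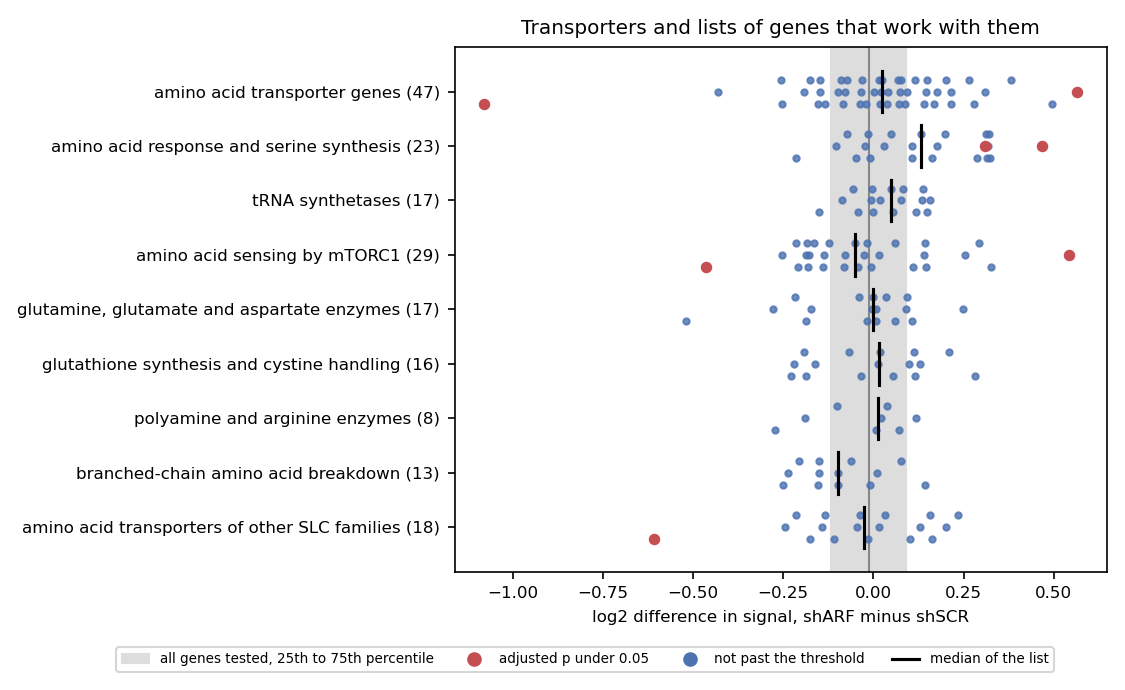
Log2 difference in signal, shARF minus shSCR, of each tested gene (points, spread vertically for legibility) for the transporters and the 8 lists, with the number tested in brackets, the list median as a black bar and, in grey, the 25th to 75th percentile of all genes tested. The medians lie between -0.10 and 0.13, and the red points, 2 for the transporters and 5 for the lists, are the genes that passed the test.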

How the data were processed

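The deposited table holds linear-scale intensities of each probeset on 3 shSCR and 3 shARF arrays. The authors normalized them with RMA in Affymetrix Expression Console, per the submitters' processing notes; no version or genome build is given in the sources used here. RMA makes the arrays' distributions alike and shrinks folds of dim genes. The signals were turned to log2, and a probeset was tested if above its array's 25th percentile (14.1 to 14.9) on at least 3 arrays, which kept 20310 of 26851. The test was that of limma 3.58.1 (R 4.3.3; eBayes defaults, two-sided, Benjamini-Hochberg over all tested probesets, threshold 0.05). Intervals are limma's 95% intervals. Each gene is its highest-mean probeset with 1 symbol in the platform annotation. The script was tested on simulated data. Values on each array are given for every called member, for Slc1a5, Slc3a2, Slc7a1, Slc7a5, Slc7a11, Slc38a1, Slc38a2 and Slc38a9, and for the 3 brightest tested members of each role; other members given array by array were chosen after their values were seen. Of the 8 lists, called genes and otherwise the smallest p are named; Atf4 and Asns were added after their values were seen. The members, lists and tests were chosen with earlier results of these data known. The number of arrays limits the precision. Alternatives changed the replicate block, filter, offset, scaling, variance model, test (SAM), probesets and arrays used.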

Additional observations from a re-analysis of the deposited data

How the results depend on the processing

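The 15 alternatives, 6 of which left out 1 array, reversed no called value. Leaving out 1 array in turn gave 0 to 2 called members, 0 to 1 higher and 0 to 1 lower, against 150 to 330 called genes in all (607 with 6 arrays) and 0 to 3 called list genes (5 with 6 arrays), and the member median lay between 0.0131 and 0.0436. The 0 came without shSCR replicate 3. Replicate numbers are shared between groups, but same-numbered arrays deviated together only weakly (r of 0.0778, 0.0518 and 0.000618 over probesets), and shSCR replicate 3 correlated best with shARF replicate 2 (0.0936), so the numbers were not taken to pair the samples. With the replicate block 1 member was called, 0 higher and 1 lower, with 336 genes and 3 list genes; Slc6a8 then had an adjusted p of 0.0516 (limma). With an intensity trend and robust prior limma called 5 members, 3 higher and 2 lower (Slc36a4, Slc6a9 and Slc7a1 in addition), with 1281 genes and 10 list genes. The number of lower members was 2, with Slc36a4 added, at the 50th percentile filter (996 genes), with an offset of 16 (978 genes) and in SAM (1079 genes and 8 list genes). Without a filter 372 genes were called. The member median was -0.0212 at the 50th percentile filter, which kept 25 members, where the median over all genes was -0.027. With arrays centred on the median it was 0.0504, where the median over all genes was 0.0153. The sign of the member median was thus not the same under every setting. The causes were not tested. The 14 members below the detection rule were not tested, so nothing is said of their differences.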
